A study of Mus musculus with 6 samples.

Results

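The regulators described here are the PGC-1 coactivators, the estrogen-related receptors (ERRs) and the factors that carry their signal to mitochondrial genes, measured in the interscapular brown fat of newborn mice with and without Fstl1 in the Myf5 lineage. They are 10 genes, picked by symbol and with earlier results of these data known: Ppargc1a, Ppargc1b, Pprc1, Esrra, Esrrb, Esrrg, Nrf1, Gabpa, Tfam and Perm1. All 10 were found among the 19241 genes of the deposited table, and 9 of them were tested, because Esrrb fell below the filter of a mean of 0.5 FPKM. RNA of the whole depot was sequenced in bulk in 6 libraries. The 3 WT libraries came from newborn mice labelled Fstl1-floxed, which carry the floxed gene and are otherwise the controls. The 3 KO libraries came from newborn mice labelled Myf5-Fstl1 KO, in which Fstl1, the gene of the secreted glycoprotein follistatin-like 1, was deleted in cells with a history of Myf5 expression. Myf5 marks precursors of skeletal muscle and of much interscapular brown fat, so cells of other origin in the depot keep the gene. The labels do not say whether each library is 1 animal or a pool, and the p-values measure the spread between these libraries. FPKM, the unit of every level below, scales the fragments of a gene by its transcript length and by the mapped fragments of the library, so levels of different genes can be set side by side.

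PGC-1 coactivators bind no DNA themselves. They dock on transcription factors, among them the ERRs, which are orphan nuclear receptors that bind the promoters of respiratory chain and fatty acid oxidation genes. In brown fat, adrenergic signals raise Ppargc1a, and PGC-1 with the ERRs sets the high mitochondrial content of the tissue. NRF1 and GABPA, also coactivated by PGC-1, act on nuclear genes of the respiratory chain and on Tfam, whose protein packages mitochondrial DNA and starts its transcription. Perm1 is induced by PGC-1 and ERRs in muscle and acts with them on oxidative genes.

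Fstl1 was lower in every KO library (7.93, 13.08 and 8.77 FPKM in replicates 1, 2 and 3) than in any WT library (55.52, 130.04 and 54.37 FPKM). Summed FPKM ran from 486449 to 556968 per library, between 17012 and 17352 genes were above 0, and each library held an estimated 13900000 to 15100000 reads. Xist was at 44.82 to 85.51 FPKM in the WT libraries and at 0.05 to 0.92 FPKM in the KO libraries, and Eif2s3y, a Y-linked gene, was at 0 to 0.08 FPKM in WT and 83.71 to 99.31 FPKM in KO. In these libraries sex therefore went with genotype, and the 2 cannot be told apart in any difference below. In bulk RNA, fewer cells of a type and less RNA per cell cannot be told apart either. With limma, 295 of the 13331 genes tested had an adjusted p under 0.05.

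The stretches before the transcription start of Perm1, Esrra and Ppargc1a are shown because these members had the smallest p-values. They come from RefSeq (GRCm38.p6, the same assembly as the mm10 named in the submitters' processing notes), run toward the start, and leave out bases that GENCODE vM21 places in an exon. The Perm1 stretch is chr4:156215677-156215867 on the plus strand and ends 60 bases before the start. The Esrra stretch is chr19:6921814-6922058 on the minus strand, and the Ppargc1a stretch is chr5:51567727-51567975 on the minus strand. Because other transcript models start further upstream, the windows lie inside the outer bounds of the Perm1 and Ppargc1a genes, and 240 of the 250 bases of the Esrra window lie inside Esrra. Capitals mark a match to the core ERR element AAGGTCA, read here on the opposite strand.
Perm1: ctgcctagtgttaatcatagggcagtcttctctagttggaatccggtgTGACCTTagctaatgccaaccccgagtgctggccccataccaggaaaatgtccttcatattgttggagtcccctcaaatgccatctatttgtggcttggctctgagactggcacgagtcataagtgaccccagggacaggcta
Esrra: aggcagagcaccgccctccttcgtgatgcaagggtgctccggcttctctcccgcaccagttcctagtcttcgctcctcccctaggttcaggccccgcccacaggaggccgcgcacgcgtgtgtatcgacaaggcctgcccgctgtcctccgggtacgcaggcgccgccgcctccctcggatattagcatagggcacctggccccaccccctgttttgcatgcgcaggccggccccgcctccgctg
Ppargc1a: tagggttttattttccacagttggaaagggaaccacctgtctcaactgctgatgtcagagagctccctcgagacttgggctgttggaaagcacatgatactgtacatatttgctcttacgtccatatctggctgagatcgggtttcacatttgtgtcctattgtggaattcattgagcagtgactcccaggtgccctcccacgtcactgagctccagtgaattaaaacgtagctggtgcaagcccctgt

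The promoter table held 14 windows of 250 bases for 9 of the 10 members, with no entry for Ppargc1b. Both strands were searched for the full ERR element TNAAGGTCA, the core AAGGTCA it contains, the CREB element TGACGTCA, the palindromic NRF1 element, and the ETS elements CCGGAAGT and CCGGAAG that GABPA can bind, the second lying inside the first. The core ERR element was in 1 member window, that of Perm1, 196 to 202 bases before the start, and in 4.08% of all 32851 windows. CCGGAAGT was in the Tfam window, 40 to 47 bases before the start, and in 2.88% of all windows. GENCODE vM21 places 236 of the 250 bases of the Tfam window in exons of Tfam, and this match lies among them. CCGGAAG was also in the Gabpa window, 87 to 93 bases before the start on the opposite strand, and in 6.91% of all windows. All 250 bases of the Gabpa window lie in exons of the overlapping gene Atp5j, and 99 of them also in exons of Gabpa. The full ERR element, the CREB element and the NRF1 element were in no member window, and in 1.14%, 1.55% and 0.782% of all windows. These are matches of letters in a short window, not binding sites.

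In WT the ERR gene Esrra was the most abundant member, at 57.1 ± 9.23 FPKM (SD, n = 3), followed by Gabpa at 49.3 ± 16.4 FPKM, and the spreads of the 2 overlapped. Ppargc1b (23.2 ± 2.84 FPKM), Ppargc1a (19.1 ± 3.98) and Tfam (15.1 ± 2.36) formed a middle tier, and the range of each overlapped that of its neighbour. Nrf1 (7.24 ± 1.06 FPKM), Pprc1 (6.92 ± 0.36) and Perm1 (5.60 ± 2.42) came next, with overlapping ranges. Esrrg was at 2.61 ± 1.26 FPKM, its highest library above the lowest of Perm1, and Esrrb was at 0.09 ± 0.0265 FPKM, the lowest in each of the 6 libraries. Esrra ranked first in WT replicates 2 and 3 and second, after Gabpa, in WT replicate 1 and in all 3 KO libraries. The level of Gabpa is uncertain because it shares exon bases with Atp5j, so its order against Esrra is uncertain too. Perm1 ranked ninth of the 10 in each KO library, below Esrrg, and ranked sixth, eighth and ninth in WT replicates 2, 3 and 1.

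**Figure D1:**
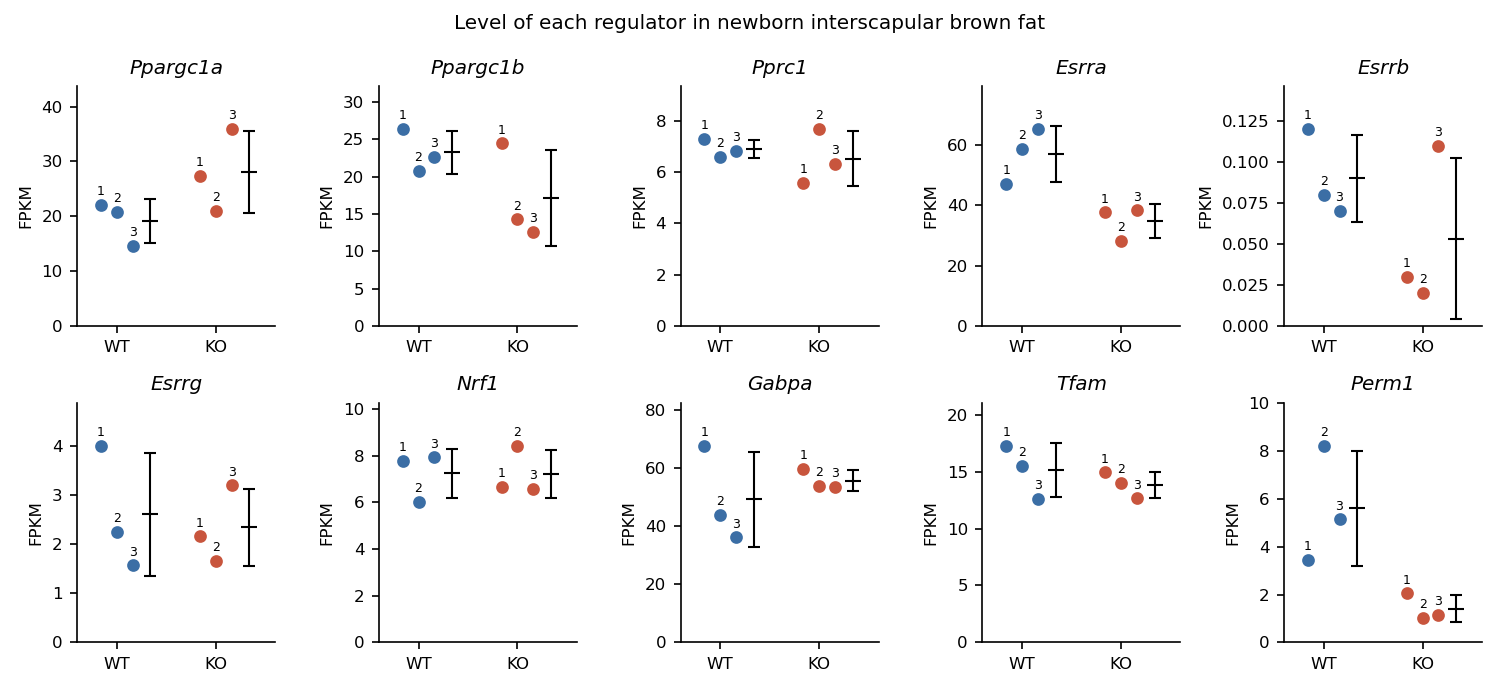
FPKM of each of the 10 regulators (vertical axes, linear from 0) in the WT (blue) and KO (red) libraries, with the replicate number at each point and the mean ± SD (n = 3) beside it. The groups are apart for Esrra and Perm1, lower in KO, and overlap for the other 8.

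Of the 9 members tested, 1 passed the threshold, Perm1, lower in KO, where 2.21% of all tested genes passed, 1.01% as lower and 1.21% as higher. The groups did not overlap for 2 members, Perm1 and Esrra, against 24.9% of all tested genes. At an unadjusted p under 0.05 there were 3 members, Perm1, Esrra and Ppargc1a, against 19.2% of all tested genes. The median log2 fold change was −0.08 over the members and 0.01 over all tested genes. Each fold change is of FPKM + 1 on the log2 scale, KO minus WT, a scale that shrinks the differences of weakly expressed genes.

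**Figure D2:**
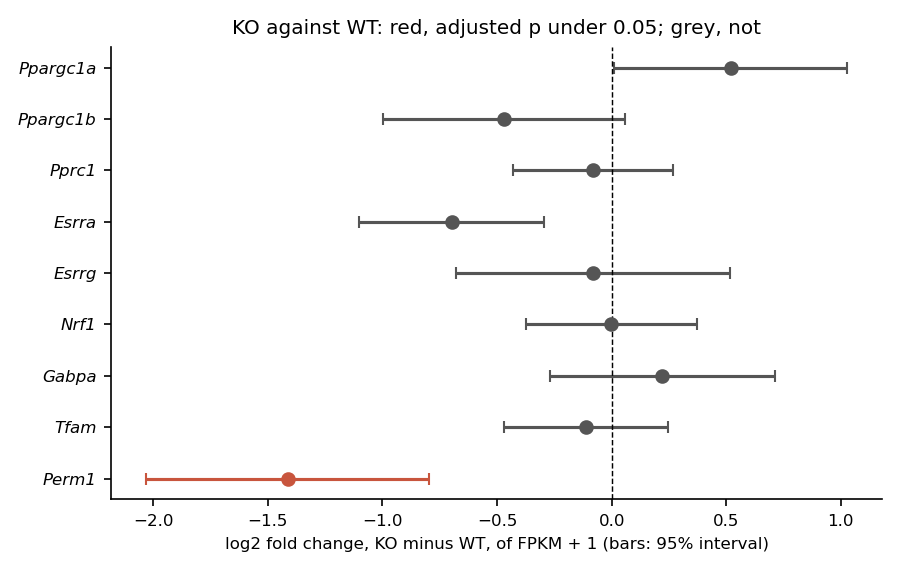
Log2 fold change of FPKM + 1, KO minus WT (horizontal axis), for the 9 members tested, with bars for the 95% interval from limma. Perm1 (red) at −1.41 passed an adjusted p of 0.05, and the interval of Esrra lies below 0 although its adjusted p was 0.0813.

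Among the coactivators, Ppargc1a and Ppargc1b leaned in opposite directions and neither passed the threshold. Ppargc1a, the coactivator induced by cold and adrenergic signals, measured 22.01, 20.78 and 14.59 FPKM across the WT libraries against 27.40, 20.96 and 35.88 FPKM across the KO libraries, each in the order of replicates 1 to 3, as in all such sentences here. KO replicate 3 was the highest library and WT replicate 3 the lowest, while KO replicate 2 lay between the WT libraries. The KO mean was 147% of the WT mean, with a log2 fold change of 0.52 (SE 0.22, 95% interval 0.01 to 1.03, limma adjusted p 0.251).

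Ppargc1b, the close relative that also drives mitochondrial genes, measured 26.33, 20.75 and 22.59 FPKM across the WT libraries against 24.44, 14.26 and 12.63 FPKM across the KO libraries. KO replicates 2 and 3 were below every WT library and KO replicate 1 was above 2 of them. The log2 fold change was −0.47 (SE 0.23, 95% interval −0.996 to 0.06, limma adjusted p 0.315). Pprc1, a relative linked to growth signals, varied little, from 5.58 to 7.68 FPKM over the 6 libraries, with a log2 fold change of −0.08 (95% interval −0.43 to 0.27, limma adjusted p 0.822).

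The make-up of the coactivator family was set beside its sum. Ppargc1a held 39.6%, 43.2% and 33.1% of the summed FPKM of the 3 coactivator genes in the WT libraries and 47.7%, 48.9% and 65.4% in the KO libraries. The shares of the groups did not overlap, and KO replicate 3 set the upper end: without it the KO mean was 48.3%, in place of 54.0%. The sums themselves overlapped, with 44.03 to 55.65 FPKM in WT and 42.90 to 57.42 FPKM in KO.

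**Figure D3:**
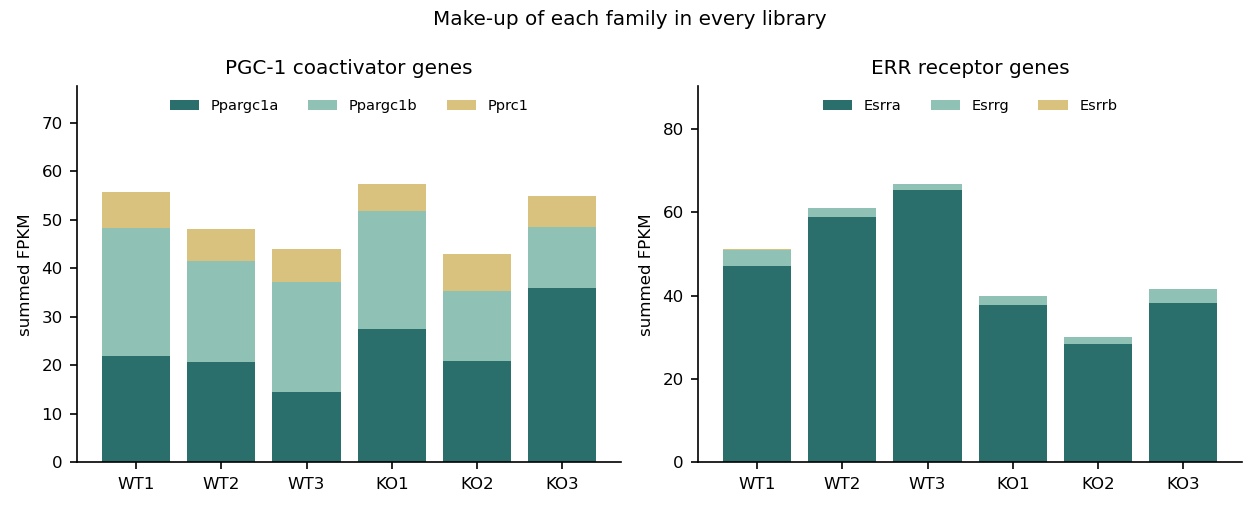
Summed FPKM (vertical axes, from 0) of the coactivator genes (left) and the ERR genes (right) in every library, divided by gene. The coactivator sums of the groups overlap while the share of Ppargc1a is larger in each KO library, and the ERR sum, nearly all Esrra, is lower in each KO library.

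Of the 3 receptor genes, Esrra accounted for nearly all of the measured RNA. Esrra, the ERR most tied to respiratory chain genes, measured 47.08, 58.82 and 65.29 FPKM across the WT libraries against 37.70, 28.34 and 38.35 FPKM across the KO libraries. Every KO library was below every WT library, and the nearest pair were WT replicate 1 and KO replicate 3. The KO mean was 61.0% of the WT mean, with a log2 fold change of −0.70 (SE 0.18, 95% interval −1.10 to −0.29), and it missed the threshold over all tested genes (limma adjusted p 0.0813). Its log2 fold change kept its sign in all 17 alternatives, from −0.83 to −0.56, and its adjusted p (0.00539 to 0.274) passed in 1 of them, array weights.

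Esrrg, the ERR typical of heart, muscle and thermogenic fat, measured 4.01, 2.26 and 1.57 FPKM across the WT libraries against 2.16, 1.67 and 3.20 FPKM across the KO libraries. The groups overlapped throughout, and WT replicate 1 was the highest library. Its log2 fold change was −0.08 with a 95% interval from −0.68 to 0.52 (limma adjusted p 0.904), a wide interval around 0. Esrrb, known from pluripotent cells and the inner ear, measured 0.12, 0.08 and 0.07 FPKM across the WT libraries against 0.03, 0.02 and 0.11 FPKM across the KO libraries. At the estimated depth these values come to between 1.3 and 7.6 reads per library, so no difference was detectable. Esrra made up 91.9% to 97.5% of the summed ERR FPKM in the WT libraries and 92.1% to 94.5% in the KO libraries. The sum was 51.21 to 66.93 FPKM in WT and 30.03 to 41.66 FPKM in KO, without overlap.

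Perm1, the regulator that PGC-1 and ERRs induce in muscle, fell in KO. It measured 3.45, 8.22 and 5.14 FPKM across the WT libraries against 2.05, 1.03 and 1.15 FPKM across the KO libraries. WT replicate 2 was the highest library, and the nearest values of the groups were WT replicate 1 and KO replicate 1. The KO mean of 1.41 ± 0.557 FPKM was 25.2% of the WT mean of 5.60 ± 2.42 FPKM (SD, n = 3). The log2 fold change was −1.41 (SE 0.27, 95% interval −2.03 to −0.80, limma adjusted p 0.0412). By the estimated depth the values rest on 59.9 to 111.2 reads in the KO libraries and 197.8 to 484.2 in the WT libraries. The direction held in all 16 alternatives that tested it, but the adjusted p, which ran from 0.00216 to 0.138, missed the threshold in 7 of them. These were the fit without the filter (adjusted p 0.114), the replicate block (0.0642), and the fits without WT replicate 2 (0.138), WT replicate 3 (0.135), KO replicate 1 (0.0533), KO replicate 2 (0.109) and KO replicate 3 (0.114).

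Nrf1, Gabpa and Tfam, the factors between the coactivators and the mitochondrial genome, overlapped between the groups and did not pass. Nrf1 was at 6.01 to 7.92 FPKM in WT and 6.59 to 8.42 FPKM in KO, with a log2 fold change of −0.002 (95% interval −0.38 to 0.37, limma adjusted p 0.998) whose sign turned in several alternatives. Tfam measured 17.27, 15.51 and 12.59 FPKM across the WT libraries against 14.93, 13.99 and 12.64 FPKM across the KO libraries. WT replicate 3 was its lowest library and the KO values all lay between those of WT replicates 1 and 3. The log2 fold change of Tfam was −0.11 (95% interval −0.47 to 0.25, limma adjusted p 0.752).

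Gabpa, the DNA-binding subunit of the GABP complex, measured 67.69, 43.91 and 36.16 FPKM across the WT libraries against 59.74, 53.86 and 53.46 FPKM across the KO libraries. The KO libraries lay close together, inside the wider range of WT, and the log2 fold change was 0.22 (95% interval −0.27 to 0.71, limma adjusted p 0.621). In GENCODE vM21, 7.0% of the exon bases of Gabpa are shared with exons of Atp5j on the other strand, a gene at 275.22 to 416.68 FPKM in these libraries. The strand handling of the counting is not given in the sources used here, so reads of the shared bases cannot be told apart and the level of Gabpa is uncertain. Esrra shares 1.7% of its exon bases with Trmt112 and 2.1% with Mir6990, and Pprc1 shares 2.8% with Ldb1.

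The genes around the members were read from lists of known activators and partners, repressors, mitochondrial DNA genes and target genes. These lists were chosen with earlier results of these data known. Of the 25 activators and partners, 0 passed the threshold in limma, against 2.21% of all tested genes, and 3 were lower and 5 higher at an unadjusted p under 0.05, against 19.2% of all tested genes. The groups did not overlap for 4 lower and 5 higher genes, where 11.4% of all tested genes were apart and lower and 13.6% apart and higher, and the median log2 fold change was 0.02. Lpin1, a phosphatidate phosphatase that also acts as a coactivator with PGC-1α, ranged over 29.04 to 34.75 FPKM in the WT libraries and measured 88.85, 44.31 and 157.98 FPKM across the KO libraries (log2 fold change 1.39, limma adjusted p 0.0918). Its adjusted p missed the threshold in 15 of 17 alternatives and passed with array weights (0.0104) and without KO replicate 2 (0.0314, with a log2 fold change of 1.86). The fit without KO replicate 3 gave 0.95 on the log2 scale (limma adjusted p 0.161), and the highest adjusted p, 0.248, came without WT replicate 2.

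Sirt1, the deacetylase that activates PGC-1α, measured 15.13, 10.26 and 7.69 FPKM across the WT libraries against 18.28, 17.96 and 23.00 FPKM across the KO libraries (log2 fold change 0.82, limma adjusted p 0.0969). Its adjusted p also missed the threshold in 15 of 17 alternatives, with values up to 0.296 (without WT replicate 2), and passed with array weights (0.00515) and without WT replicate 1 (0.04). Prkaa2, a catalytic subunit of the energy sensor AMPK, was at 4.80 ± 1.30 FPKM in WT and 2.79 ± 0.586 FPKM in KO (SD, n = 3; log2 fold change −0.60, limma adjusted p 0.156). Each KO library was above every WT library for Lpin1 and Sirt1 and below every WT library for Prkaa2.

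Of the 9 repressors, 0 passed in limma and 1 had an unadjusted p under 0.05, against 19.2% of all tested genes. That gene, Flcn, whose product folliculin restrains PGC-1 and ERR activity, measured 15.44, 20.13 and 22.27 FPKM across the WT libraries against 27.30, 27.47 and 25.82 FPKM across the KO libraries (log2 fold change 0.47, limma adjusted p 0.161). Its partner Fnip1 (log2 fold change 0.31, limma adjusted p 0.443) and Twist1, which dampens PGC-1α targets (−0.24, 0.491), overlapped between the groups. The median over the repressors was −0.02.

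Of the 27 nuclear genes that transcribe, process or maintain mitochondrial DNA and its RNA, 0 passed in limma, and 3 were lower and 4 higher at an unadjusted p under 0.05, against 19.2% of all tested genes. The groups were apart for 3 lower and 5 higher genes, against 24.9% of all tested genes in either direction, and the median log2 fold change was 0.07. The 3 with the smallest p-values were all mitochondrial termination factor genes, and they did not lean one way. Mterf4, needed for the assembly of the mitochondrial ribosome, measured 11.73, 11.82 and 12.53 FPKM across the WT libraries against 19.58, 16.83 and 28.07 FPKM across the KO libraries (log2 fold change 0.76, limma adjusted p 0.0764). Mterf1a, whose reads may be split with its near-identical copy Mterf1b, was at 1.79 ± 0.43 FPKM in WT and 3.06 ± 0.447 FPKM in KO (SD, n = 3; log2 fold change 0.55, limma adjusted p 0.134). Mterf2 was at 8.34 ± 2.70 FPKM in WT and 4.73 ± 0.806 FPKM in KO (SD, n = 3; log2 fold change −0.68, limma adjusted p 0.139).

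Of the 32 target genes, 0 passed in limma, and 4 were lower and 0 higher at an unadjusted p under 0.05, against 19.2% of all tested genes. In the fit 25 were lower and 7 higher, where 6446 of the 13331 tested genes were lower and 6885 higher. The median log2 fold change of the targets was −0.10. It was −0.03 with array weights, and ran from −0.148 to −0.003 when 1 library was left out. The groups were apart for 7 target genes, all lower in KO, where 11.4% of all tested genes were apart and lower. Alas1, the first enzyme of heme synthesis and a PGC-1α target, measured 96.82, 129.32 and 94.38 FPKM across the WT libraries against 78.89, 51.25 and 70.80 FPKM across the KO libraries (log2 fold change −0.67, limma adjusted p 0.115). Fabp3, a fatty acid binding protein of heart, muscle and brown fat, measured 23.43, 51.02 and 31.11 FPKM across the WT libraries against 8.31, 15.38 and 21.78 FPKM across the KO libraries (log2 fold change −1.18, limma adjusted p 0.118). Sod2, the mitochondrial superoxide dismutase, was lower in every KO library, at 173.97 to 208.27 FPKM, than in any WT library, at 234.74 to 258.72 FPKM (log2 fold change −0.40, limma adjusted p 0.162). The other 4 target genes with groups apart were Cycs, Idh3a, Atp5a1 and Slc25a20, picked out after their values were seen.

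**Figure D4:**
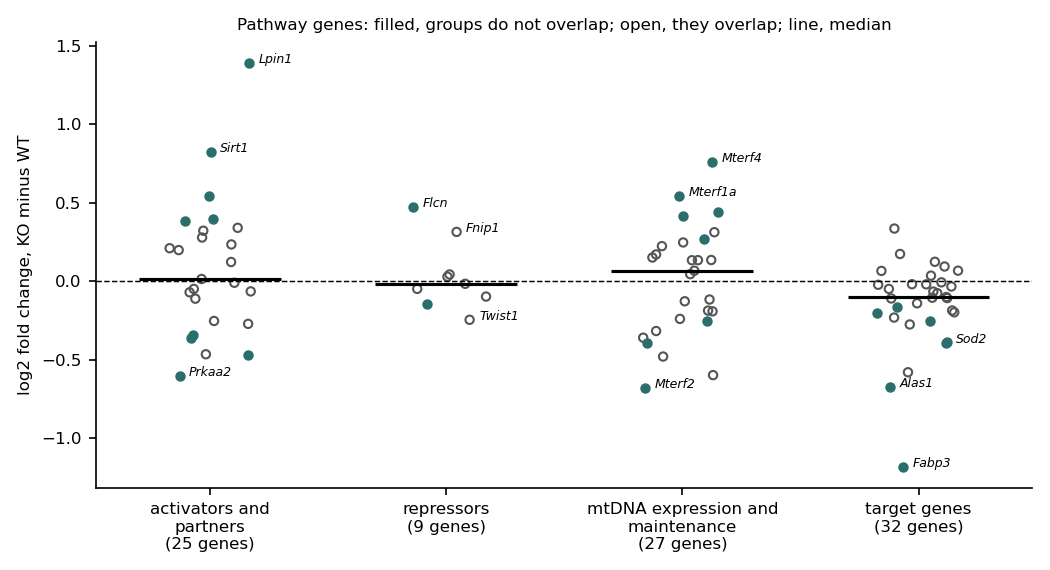
Log2 fold change of FPKM + 1, KO minus WT (vertical axis), of each gene in the 4 lists (horizontal axis), with filled points where the groups do not overlap, open points where they do, and a line at the median. The named genes are the 3 with the smallest p in each list, and 0 genes in any of the 4 lists passed the threshold.

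Patterns over the 6 libraries were compared by the root mean square difference of log2(FPKM + 1) after centring each gene on its own mean, among tested genes at a mean of at least 5 FPKM, for the 4 members with a range of at least 1. The pattern of Perm1 was nearest to those of Plin1 (difference 0.145), which coats lipid droplets, Plin5 (0.192), which ties droplets to mitochondria, and Adrbk2 (0.209), a receptor kinase gene. For Esrra the nearest were Tuba4a (0.055), a tubulin gene, Tomm40 (0.060), the pore of the outer mitochondrial membrane translocase, and Sars2 (0.0764), the mitochondrial seryl-tRNA synthetase. For Ppargc1a they were Sycp3 (0.0579), Lrp6 (0.0817) and Esyt2 (0.0842), and for Ppargc1b they were Fkbpl (0.0658), Bcl9l (0.091) and Hexim1 (0.122). Over 6 libraries such near matches are a description only.

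Markers of the cells in the depot were read beside Perm1 and Esrra. Like the other lists, the markers were chosen with earlier results of these data known, so their counts beside the shares of all genes are a description only. Of 15 brown adipocyte markers, 4 fell (Elovl3, Otop1, Plin1 and Plin5) and 0 rose, where 1.01% of all tested genes were called lower. In the fit 12 were lower and 3 higher, where 6446 of the 13331 tested genes were lower and 6885 higher. The groups were apart for 7 of these markers, all lower in KO, where 11.4% of all tested genes were apart and lower. Elovl3, a fatty acid elongase of brown fat, measured 18.77, 23.58 and 25.85 FPKM across the WT libraries against 4.67, 1.69 and 5.65 FPKM across the KO libraries (log2 fold change −2.34, limma adjusted p 0.0151). Plin1 measured 173.81, 309.34 and 253.85 FPKM across the WT libraries against 106.01, 76.59 and 96.88 FPKM across the KO libraries (log2 fold change −1.36, limma adjusted p 0.0267). The log2 fold changes of Otop1, an ion channel gene, and Plin5 were −1.52 (limma adjusted p 0.0243) and −1.37 (0.0435). The direction of these 4 held in all 17 alternatives, but Elovl3 missed the threshold in 3 of them (adjusted p up to 0.0815), Otop1 in 5 (up to 0.108), Plin1 in 6 (up to 0.108) and Plin5 in 8 (up to 0.183). All 4 missed it without the filter, without WT replicate 2 and without WT replicate 3. Otop1, Plin1 and Plin5 also missed it without KO replicate 2 and without KO replicate 3. With the replicate block the limma adjusted p was 0.0523 for Plin1 and 0.0775 for Plin5. The summed level of the 15 markers, most of it Fabp4, was 22953 to 29923 FPKM in WT and 22869 to 24926 FPKM in KO. Ucp1, the uncoupling protein, measured 4366, 6124 and 6255 FPKM across the WT libraries against 2902, 1695 and 3592 FPKM across the KO libraries (log2 fold change −1.08, limma adjusted p 0.0804). Of 17 skeletal muscle markers, 0 passed in limma and 1 had an unadjusted p under 0.05, against 2.21% and 19.2% of all tested genes. All 17 had a fold change below 0, as did 6446 of the 13331 tested genes. For Myh3 it was −0.09 although the KO mean, 16.3 FPKM, was above the WT mean, 13.7 FPKM. KO replicate 1 was at 3.24 FPKM of Myh3, and KO replicates 2 and 3, at 20.01 and 25.75 FPKM, were above every WT library. The muscle markers with the smallest p-values were Mb (log2 fold change −0.96, limma adjusted p 0.169, and 0.0185 without WT replicate 1), Myog (−0.76, 0.324) and Tnnt1 (−0.94, 0.342).

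The summed muscle level was 1388, 2015 and 1601 FPKM in WT replicates 1, 2 and 3 and 345, 1509 and 1825 FPKM in KO replicates 1, 2 and 3. KO replicate 1 held the least muscle RNA and, among the KO libraries, the most Perm1. KO replicates 2 and 3 were inside the WT range of the muscle sum, with Perm1 at 1.03 and 1.15 FPKM. Among the WT libraries Perm1 and the muscle sum had the same order. Both were lowest in WT replicate 1, with Perm1 at 3.45 FPKM, and highest in WT replicate 2, with Perm1 at 8.22 FPKM. Without KO replicate 1 the log2 fold change of Perm1 was −1.60 and missed the threshold (limma adjusted p 0.0533). The part of muscle RNA in the level of Perm1 was not tested. Of 9 macrophage markers, 0 passed in limma and 5 had an unadjusted p under 0.05, against 19.2% of all tested genes. All 9 had a fold change above 0, as did 6885 of the 13331 tested genes. The macrophage sums were 91.6 to 132 FPKM in WT and 132 to 177 FPKM in KO. Of 6 endothelial markers 0 passed and 1 had an unadjusted p under 0.05. Of 4 erythroid markers tested 0 passed and 0 had one, against the same 19.2%. The endothelial and erythroid sums ranged over 459 to 602 and 24.3 to 60.4 FPKM in WT and over 466 to 520 and 22.7 to 39.5 FPKM in KO. No marker of these lists was at 0 in any library. The part of the cell make-up in the values of Perm1 and Esrra was not tested.

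**Figure D5:**
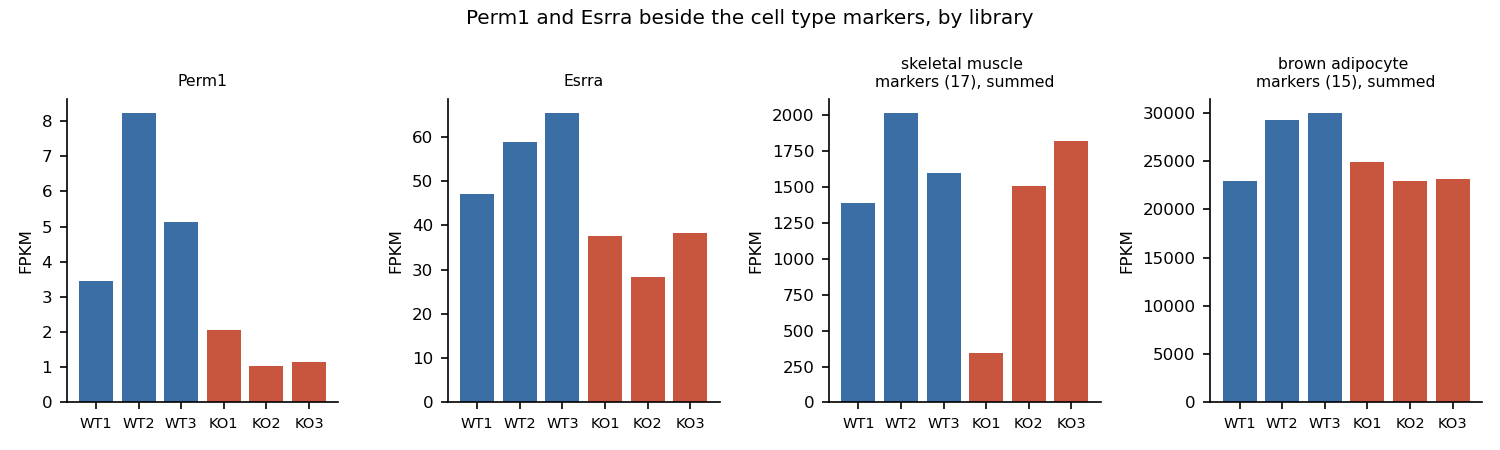
FPKM (vertical axes, from 0) of Perm1, Esrra and the summed skeletal muscle and brown adipocyte markers in each WT (blue) and KO (red) library. The muscle sum is low in KO replicate 1, at 345 FPKM, and inside the WT range in KO replicates 2 and 3. Perm1 is below every WT library in all 3. Among the WT libraries Perm1 and the muscle sum have the same order. The part of the cell make-up in these values was not tested.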

How the data were processed

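Bulk RNA of the depot was measured in 3 WT and 3 KO libraries, which their titles in the labels place in groups. The authors deposited FPKM values, per the file headers, rounded to 2 decimals. HISAT2 2.0.4, Bowtie2 2.2.5, DESeq2 (with no version) and the build mm10 are named in the submitters' processing notes, without their roles. The counting tool and its use of strand are not given in the sources used here.

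From the deposited values log2(FPKM + 1) was computed with no rescaling. Genes averaging 0.5 FPKM or more were compared between KO and WT in limma 3.58.1, run under R 4.3.3, using eBayes with its trend option. Benjamini-Hochberg adjustment covered all 13331 tested genes, and an adjusted p under 0.05 counted as a call whatever the fold change. FPKM are not counts, so no count model was fitted. Tested on simulated data with 13331 genes, 200 of them changed by 1.5 on the log2 scale, the fit called 167 of these and 5 unchanged genes. The simulated noise was normal and independent between genes and libraries. It held no shared effect such as sex or cell make-up, so it does not give the error rates of the real libraries.

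Depth was estimated by finding, for each library, the read number at which low FPKM values of single-transcript genes of 500 to 1300 nt best fell on whole reads, within 0.2 of a read. Between 71.1% and 76.6% of 448 to 490 values did so, where values spread evenly would give 40% at 1 fixed setting. The share printed is the highest over the read numbers and length offsets searched, so 40% is too low a yardstick for it. The offset taken from each transcript length was 0 nt in WT replicate 3 and 50 nt in the other libraries. Transcript lengths came from GENCODE vM21. The reads given for Perm1 and Esrrb use these depths with full transcript lengths.

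The members and the gene lists were chosen with earlier results of these data known. Named genes are the 10 members, Fstl1 and Ucp1 as checks, up to 5 genes past the threshold from each list (or, where none passed, the 3 with the smallest p), and the 3 genes nearest in pattern to each member with a log2 range of at least 1. Genes beyond this rule are Xist, Eif2s3y, Atp5j, Fabp4, Pdk4, Myh3, Cycs, Idh3a, Atp5a1 and Slc25a20, named after their values were seen, and genes that share exon bases with a member. WT and KO share replicate numbers, but libraries of the same number deviated together only weakly, with correlations across genes of 0.068, 0.043 and 0.043. The main fit did not treat them as pairs. Alternatives were other pseudocounts (0.1 and 0.01), filters and scalings, eBayes without trend and robust, array weights, a replicate block, and leaving out each library. Figures were drawn with matplotlib 3.10.9.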

Additional observations from a re-analysis of the deposited data

How the results depend on the processing

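The number of genes called over the whole table was 295, and it was 35 without the filter on low values, 191 with a common FPKM sum, 3181 with array weights and 31 to 370 when 1 library was left out (for WT replicates 1, 2 and 3 in turn 370, 39 and 31 genes, and for KO replicates 1, 2 and 3 in turn 121, 89 and 87 genes). The array weight of WT replicate 2 was 6.70, those of the others lay between 0.368 and 1.67, and the estimate stopped before it converged. The share of lower genes among those called was 45.4%, and leaving out KO replicates 1, 2 and 3 in turn made it 55.4%, 25.8% and 29.9%. The median log2 fold change of all genes was 0.01, and 0.04 with a common FPKM sum, which moved it the most of the scalings.

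The count of members called, 1, was 0 without the filter, 0 with a filter at a mean of 5 FPKM (which removes Perm1), 2 with array weights (Esrra and Perm1), and 0 to 1 when 1 library was left out (0 without any one library other than WT replicate 1). With the replicate block 0 members were called, Perm1 at an adjusted p of 0.0642 (limma), and 167 genes over the whole table. Array weights called 13 activators and partners, 1 repressor, 7 mitochondrial DNA genes and 5 target genes, where the other fits of all 6 libraries called 0. Leaving out 1 library gave 0 to 1 activators and partners, and 0 in the other lists. The cause of these shifts was not tested.

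The direction turned for 3 members, all near 0. Nrf1 was at 0.0236 with a common FPKM sum, at 0.156 with array weights, and at −0.114 to 0.0599 without 1 library. Esrrg ran from −0.299 to 0.182 and Pprc1 from −0.189 to 0.0112 without 1 library. The other 6 tested members kept their direction in every alternative that tested them. Array weights also took Esrra past the threshold, and no alternative did so for Ppargc1a, Ppargc1b, Pprc1, Esrrg, Nrf1, Gabpa or Tfam.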

Other observations

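These values were chosen after the levels of the members were seen, and carry no test. The ratio of Ppargc1a to Esrra FPKM was 0.468, 0.353 and 0.223 in WT replicates 1, 2 and 3 and 0.727, 0.74 and 0.936 in KO replicates 1, 2 and 3, so that the coactivator was more abundant relative to the receptor in each KO library. The ratio of Ppargc1a to Ppargc1b was 0.836, 1.001 and 0.646 in WT and 1.12, 1.47 and 2.84 in KO. KO replicate 3 was the highest library in both ratios.

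The same library stood out in Pdk4, the kinase that holds back pyruvate dehydrogenase and a known PGC-1 and ERR target. Pdk4 measured 288.28, 222.47 and 267.72 FPKM across the WT libraries against 203.71, 216.25 and 784.9 FPKM across the KO libraries, so that KO replicates 1 and 2 were below every WT library and KO replicate 3 far above them. Lpin1 and Ppargc1a were also highest in KO replicate 3, at 157.98 and 35.88 FPKM.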
